A study of Mus musculus with 10 samples.

Results

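Sugar absorption and sugar metabolism in the jejunum were examined through 9 genes: the transporter genes Slc5a1, Slc2a1, Slc2a2 and Slc2a5, and the enzyme genes Khk, Pklr, G6pc, Fbp1 and Pck1. They were 9 of the 22180 genes tested, chosen by name and by role, and a gene was taken at the probe set whose annotation gave that symbol alone. A single probe set was available for 8 of them. Slc2a1 had 2, of which the one with the higher mean was used and both are reported. The samples were 10 pieces of jejunum from female mice aged 10 to 12 weeks, 5 labelled knockout (numbers 1 to 5) and 5 labelled control (numbers 6 to 10), with 1 Affymetrix array each. All mice carried LoxP sites in both copies of Pcyt1a, a gene of phosphatidylcholine synthesis (Pcyt1aLoxP/LoxP), and all received tamoxifen for 5 days. The knockouts also carried VilCreERT2, a Cre recombinase that tamoxifen activates and that the villin promoter confines to gut epithelium, so other cells of the piece keep the gene. High fat feeding for 4 days and an overnight fast preceded sampling in both groups. The series text mentions re-feeding, whereas the labels of all 10 samples give the fasted state.

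The absorptive cell of the small intestine takes glucose and galactose from the lumen with the sodium-coupled carrier SGLT1, and fructose with GLUT5. GLUT2 passes sugars on to the blood, and GLUT1 carries glucose into most cell types, dividing cells among them. Within the cell, ketohexokinase starts fructose breakdown and pyruvate kinase ends glycolysis. Phosphoenolpyruvate carboxykinase, fructose bisphosphatase and glucose 6-phosphatase are steps of gluconeogenesis, which the liver, the kidney and, in some states, the small intestine carry out.

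Values are log2 of the deposited intensities, each differing from the next possible one by 0.01, and a difference is the knockout mean minus the control mean with its standard error (SE) from limma. Pcyt1a, the targeted gene, lay between 7.14 and 7.80 on the knockout arrays and between 9.18 and 9.55 on the controls (log2 fold change -1.93, SE 0.13, limma adjusted p = 9.577e-05). The source description of the controls also speaks of absent phosphatidylcholine synthesis, against their titles and genotype, and the Pcyt1a levels followed the titles. The median log2 intensity of all genes lay between 5.77 and 5.89 on every array. Enterocyte markers were high on all arrays, with a mean over 15 measured markers of 12.67 to 12.90 in knockouts and 12.74 to 12.92 in controls, as the labelled tissue would give. Levels are not set against each other between genes, because each probe set has its own response. In a piece of whole tissue, fewer cells of a type and less RNA per cell cannot be told apart. The labels do not state that each sample is a separate mouse, and the p-values then reflect only the variation among these 10 pieces, which may be technical.

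None of the 9 genes passed the threshold, an adjusted p under 0.05 in limma over all 22180 genes. Of all genes, 6 passed, 0.0271% of those tested. The smallest adjusted p among the sugar genes was 0.129. For Slc2a1 and Pklr all 5 knockouts read above all 5 controls, with mean differences of 0.42 and 0.33 on the log2 scale. Groups without overlap were found for 2 of 9 sugar genes and for 2.60% of all genes. At an unadjusted p under 0.05 there were 3 of 9, against 13.9% of all genes. Of these, 2 were higher in knockouts (8.29% of all genes were) and 1, Khk, was lower (5.56% of all genes). The other 6 genes had 95% intervals that included 0. The median difference of the 9 genes was -0.19, beside -0.01 over all genes, and 6 of the 9 values were negative. The genes had been picked with results of these arrays known, so no test was made over them as a group.

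**Figure D1:**
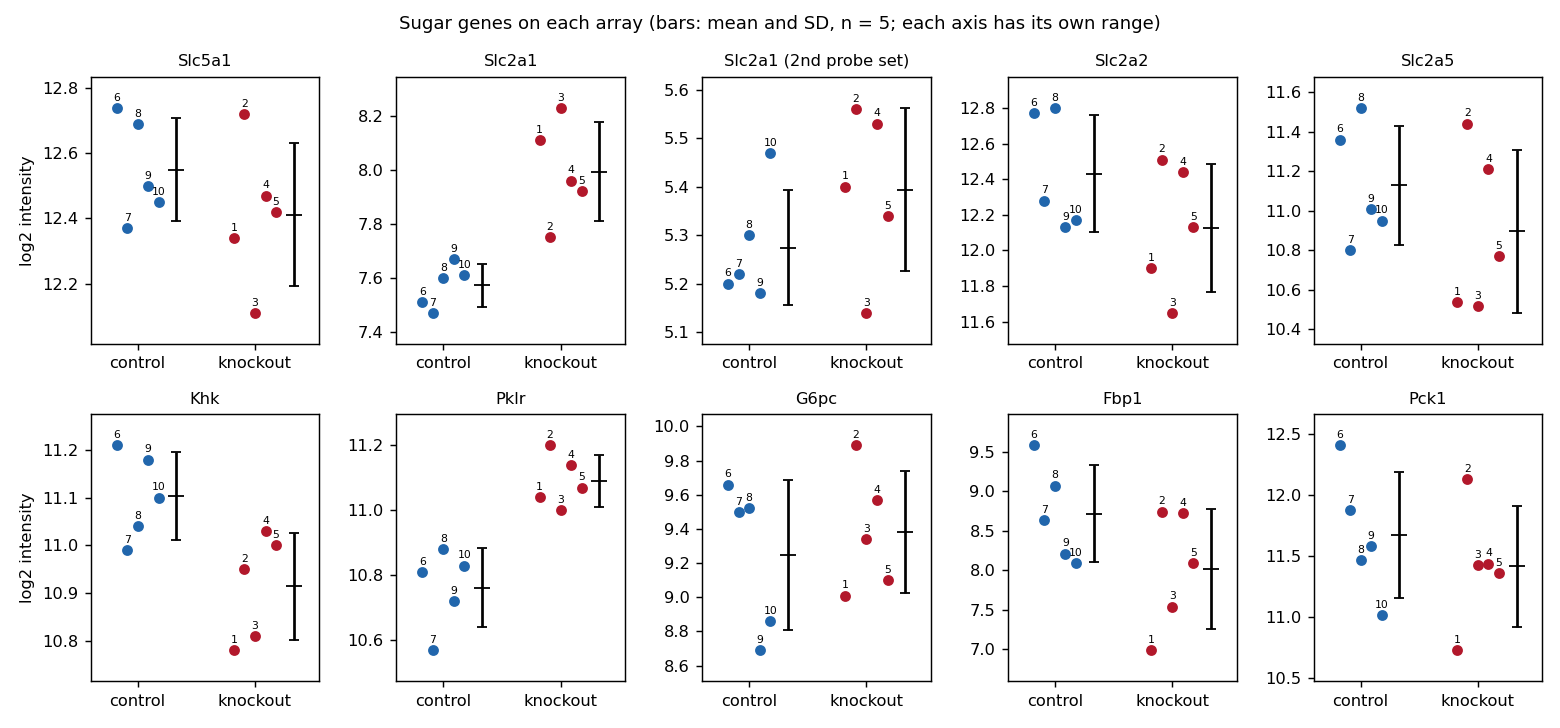
Log2 intensity of the 9 sugar genes and of the second Slc2a1 probe set, with 1 numbered point per array, controls in blue and knockouts in red; black marks show the mean and SD of 5 arrays. The groups stand apart for Slc2a1 at its main probe set and for Pklr, and overlap in the other panels.

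**Figure D2:**
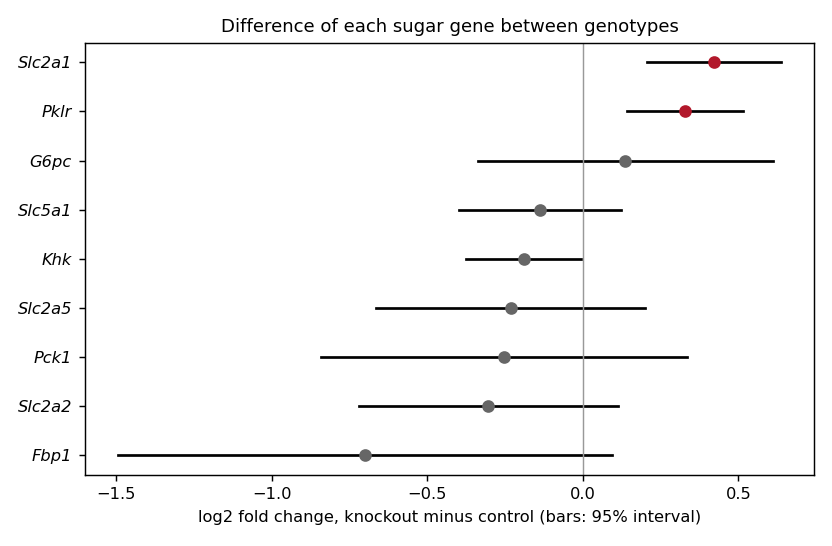
Log2 fold change of each sugar gene, knockout minus control, with its 95% interval from limma; red points mark genes whose groups did not overlap. The intervals of Slc2a1 and Pklr lie above 0, that of Khk ends just below 0, and the other 6 cross 0.

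Slc2a1 encodes GLUT1, the basal glucose carrier. At its main probe set, 17417844, the knockout arrays 1 to 5 read 8.11, 7.75, 8.23, 7.96 and 7.92. The control arrays 6 to 10 read 7.51, 7.47, 7.60, 7.67 and 7.61. The lowest knockout, array 2, lay 0.08 above the highest control, array 9, so the groups were separate by a small margin. The knockout mean was 7.99 ± 0.18 and the control mean 7.57 ± 0.08 (SD, n = 5 each), so knockouts stood at 134% of control. The log2 fold change was 0.42 (SE 0.10, 95% interval 0.21 to 0.64, limma adjusted p = 0.129). Without knockout 2 the gene passed the threshold, with a difference of 0.48 (SE 0.09) and a limma adjusted p of 0.0320, in a fit that called 452 genes in all. In the exact permutation test of this gene alone, the two-sided p was 0.00794, the smallest that 5 arrays against 5 can give.

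The second Slc2a1 probe set, 17429307, did not show this separation. Its knockout arrays read 5.40, 5.56, 5.14, 5.53 and 5.34, and its controls 5.20, 5.22, 5.30, 5.18 and 5.47. Knockout 3, the highest array at the main probe set, was the lowest of all 10 here, and knockout 2, the lowest knockout there, was the highest here. Means were 5.39 ± 0.17 and 5.27 ± 0.12 (SD, n = 5 each), a difference of 0.12 (SE 0.10, limma adjusted p = 0.640 over all probe sets with 1 symbol). Over the 10 arrays the probe sets had a Pearson r of 0.10 (permutation p = 0.781) and a Spearman rho of 0.14 (permutation p = 0.708). Leaving out the 2 arrays farthest from the median of the main probe set, knockouts 1 and 3, gave r = 0.59. These values pool both genotypes, which were separate at the main probe set. For deviations from the group means r was -0.55. Averaging both probe sets put the difference at 0.27 (SE 0.07, limma adjusted p = 0.169). Which transcripts each probe set reads is not given in the sources used here.

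Slc2a1 is set beside the markers of crypt and dividing cells, which the piece also holds. Of 9 measured markers, 8 had an unadjusted p under 0.05 and were higher in knockouts, and 0 passed the adjusted threshold. Their mean per array was 7.65 to 8.62 in knockouts and 6.87 to 7.92 in controls. Lgr5, the stem cell marker, was the exception in sign, at 5.97 to 6.67 in knockouts and 6.08 to 7.20 in controls (difference -0.42, limma adjusted p = 0.362). Within the groups, Slc2a1 and the marker mean had a Pearson r of 0.66 over the 10 arrays (exact within-group permutation p = 0.0442, adjusted 0.159 over 126 pairs of a sugar gene and a marker list). A fit that held this mean constant, added once the data had been seen, put the Slc2a1 difference at 0.26 (SE 0.12, limma adjusted p = 0.549). The part of these cells in the Slc2a1 difference was not tested further. Within groups, r between Slc2a1 and other marker means was -0.74 for proximal gut, -0.73 for enterocytes and 0.67 for Paneth cells. None of these passed (adjusted exact permutation p = 0.119, 0.150 and 0.162).

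**Figure D3:**
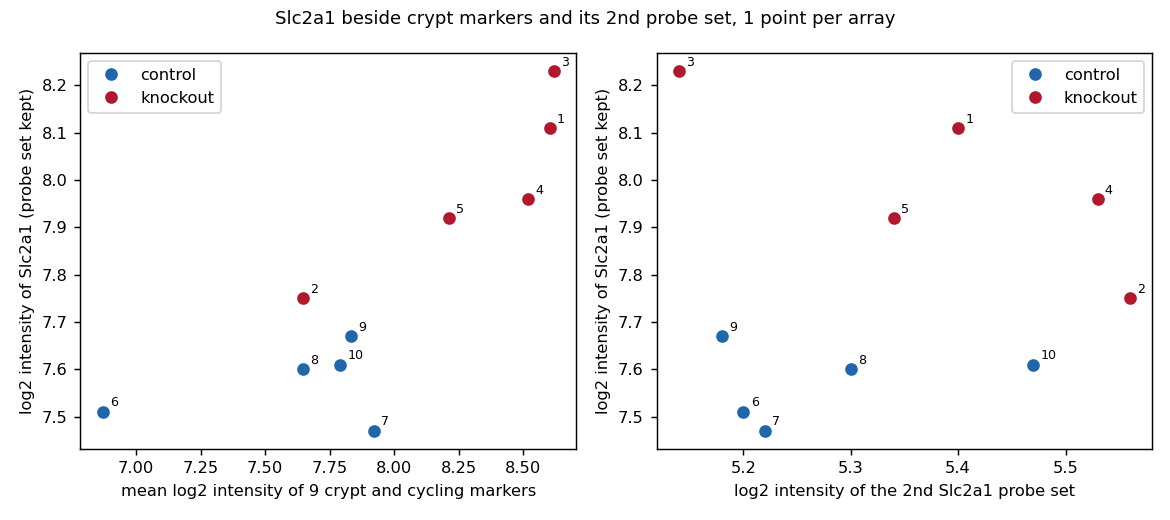
Log2 intensity of Slc2a1 at its main probe set on each array, against the mean log2 intensity of 9 crypt and cycling markers (left) and against its second probe set (right), controls in blue and knockouts in red, numbered by array. Knockouts 1, 3 and 4 are high in both Slc2a1 and the markers, and the probe sets order the arrays differently.

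Pklr encodes the pyruvate kinase of liver, red blood cells and gut epithelium. Its knockout arrays read 11.04, 11.20, 11.00, 11.14 and 11.07, and its controls 10.81, 10.57, 10.88, 10.72 and 10.83. Every knockout lay above every control, and the gap between knockout 3 and control 8 was 0.12. Means were 11.09 ± 0.08 and 10.76 ± 0.12 (SD, n = 5 each), a knockout level of 126% of control. The log2 fold change was 0.33 (SE 0.09, 95% interval 0.14 to 0.51, limma adjusted p = 0.147; exact permutation p = 0.00794). It stayed between 0.28 and 0.36 with any 1 array left out, and no such fit brought the adjusted p under 0.116. With the Paneth marker mean as a covariate it was 0.35 (SE 0.07, limma adjusted p = 0.0440), in a fit that called 362 genes. With the crypt and cycling mean as a covariate it was 0.42 (SE 0.11, limma adjusted p = 0.421). Markers of smooth muscle, which the piece also holds, ran the other way within the groups (r = -0.81, exact within-group permutation p = 0.0157, adjusted 0.106). The enterocyte and Paneth means had r = 0.73 and -0.74 to Pklr within groups (adjusted exact permutation p = 0.108 for each). The 2 measured red blood cell markers averaged 5.18 to 5.42 in knockouts and 4.96 to 5.21 in controls, with r = -0.48 to Pklr within groups (adjusted exact permutation p = 0.354). Endothelial markers, of which 4 of 6 were higher at an unadjusted p under 0.05, averaged 6.36 to 7.15 and 5.52 to 6.50 (r = 0.30, adjusted exact permutation p = 0.674). The mean of the 7 enteroendocrine markers did not overlap between groups, at 7.30 to 7.77 and 7.91 to 8.15 (r = -0.22, adjusted exact permutation p = 0.698). Of the 7, 3 were lower and 0 higher at an unadjusted limma p under 0.05, and 1, Sst, passed the adjusted threshold. The part of these cells in the Pklr difference was not tested. Dropping knockout 1 and controls 7 and 9, which led in smooth muscle markers, left a Pklr difference of 0.26.

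The promoters of these 2 genes are shown because their arrays separated by genotype. The sequences are from RefSeq, build GRCm38.p6, and cover the 250 bases before the annotated start, 5′ to 3′ on the gene's strand; all 9 genes had an entry. Slc2a1 is at chr4:119108495-119108744 (plus strand). Pklr has 2 listed starts. The window of the upstream start held no match to the motifs searched, and the one shown, picked because it held matches, is that of the downstream start at chr3:89136373-89136622 (plus strand). Capitals mark matches, on either strand, to 6 short motifs. These were the TATA box (TATAAA), an E-box (CACGTG), an HNF1 half-site (GTTAAT), the GC box (GGGCGG), the CCAAT box (CCAAT) and a half-site of the cyclic AMP response element (TGACGT).
Slc2a1: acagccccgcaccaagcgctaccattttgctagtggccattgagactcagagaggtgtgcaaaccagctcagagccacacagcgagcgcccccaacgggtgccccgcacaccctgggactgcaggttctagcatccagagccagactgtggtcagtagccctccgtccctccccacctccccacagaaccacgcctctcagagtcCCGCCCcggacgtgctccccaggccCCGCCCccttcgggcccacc
Pklr: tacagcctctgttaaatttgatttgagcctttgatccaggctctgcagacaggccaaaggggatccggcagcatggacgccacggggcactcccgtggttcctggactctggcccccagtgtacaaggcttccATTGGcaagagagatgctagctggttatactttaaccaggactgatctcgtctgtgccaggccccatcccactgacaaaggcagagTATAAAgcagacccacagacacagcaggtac
The Slc2a1 window held 2 copies of GGGCGG, the GC box, on the opposite strand, a motif found in 32.7% of the 32851 promoter windows of the same length. The Pklr window held TATAAA, present in 12.4% of windows, 31 bases before the start, and CCAAT on the opposite strand, present in 33.8%. The E-box CACGTG was in neither window. Only these exact letters were searched. Their absence says nothing about sites with other letters, including those of the sugar-responsive factor ChREBP. No match overlapped another, and a match is a description of the letters alone. The array does not tell from which Pklr start a transcript came.

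Khk encodes ketohexokinase, which phosphorylates fructose. Its knockout arrays read 10.78, 10.95, 10.81, 11.03 and 11.00, and its controls 11.21, 10.99, 11.04, 11.18 and 11.10. Knockouts 4 and 5 lay above control 7, so the groups overlapped. Means were 10.91 ± 0.11 and 11.10 ± 0.09 (SD, n = 5 each), with a log2 fold change of -0.19 (SE 0.09, 95% interval -0.38 to -0.00, limma adjusted p = 0.348, unadjusted 0.0454). The exact permutation p was 0.0317. In 13 of 24 alternative fits the unadjusted limma p was not under 0.05, among them median centring, the fits without knockout 1, 2 or 3 or control 6, 9 or 10, and those holding the enterocyte, Paneth, crypt or proximal mean constant. Tkfc, the triokinase further along fructose breakdown, was at -0.23 (SE 0.10, limma adjusted p = 0.352). Slc2a5, the fructose carrier itself, is described next.

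Slc5a1, Slc2a2 and Slc2a5 encode the carriers of sugar absorption, and none of them passed the threshold. Slc5a1, encoding SGLT1, read 12.34, 12.72, 12.11, 12.47 and 12.42 in knockouts and 12.74, 12.37, 12.69, 12.50 and 12.45 in controls. Knockout 2 lay between controls 6 and 8, the highest of that group, and knockout 3 was the lowest of all arrays. Its log2 fold change was -0.14 (SE 0.12, 95% interval -0.40 to 0.12, limma adjusted p = 0.650). Slc2a2, encoding GLUT2, read 11.90, 12.51, 11.65, 12.44 and 12.13 in knockouts and 12.77, 12.28, 12.80, 12.13 and 12.17 in controls. Controls 6 and 8 were highest and knockout 3 again lowest, with a log2 fold change of -0.30 (SE 0.19, 95% interval -0.72 to 0.11, limma adjusted p = 0.513). Slc2a5, encoding GLUT5, read 10.54, 11.44, 10.52, 11.21 and 10.77 in knockouts and 11.36, 10.80, 11.52, 11.01 and 10.95 in controls. Knockouts 1, 3 and 5 lay below every control and knockout 2 above all controls except control 8, for a log2 fold change of -0.23 (SE 0.20, 95% interval -0.66 to 0.20, limma adjusted p = 0.645). With any 1 array left out the differences ranged from -0.22 to -0.06 for Slc5a1, from -0.40 to -0.18 for Slc2a2 and from -0.37 to -0.13 for Slc2a5. The lower end came without knockout 2 in each case, and the upper end without knockout 3 for Slc5a1 and Slc2a2 and without control 8 for Slc2a5. On the linear scale the 95% intervals reach from a knockout level of 0.759 to 1.09 times control for Slc5a1, 0.607 to 1.08 for Slc2a2 and 0.631 to 1.15 for Slc2a5.

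Among the enzymes of gluconeogenesis, Fbp1 and Pck1 had larger SDs within both groups than any of those carriers. Fbp1, fructose bisphosphatase, read 6.99, 8.74, 7.54, 8.72 and 8.09 in knockouts and 9.58, 8.63, 9.07, 8.21 and 8.09 in controls. Knockout 1 and control 6 were 2.59 apart, the widest range of the 9 genes, and knockout 5 equalled control 10. The means of 8.02 ± 0.76 and 8.72 ± 0.62 (SD, n = 5 each) gave a log2 fold change of -0.70 (SE 0.36, 95% interval -1.50 to 0.10, limma adjusted p = 0.423). This was the largest difference in size among the 9 genes, and it ranged from -0.88 to -0.44 with any 1 array left out. Pck1, phosphoenolpyruvate carboxykinase, read 10.73, 12.13, 11.43, 11.44 and 11.36 in knockouts and 12.41, 11.88, 11.47, 11.58 and 11.02 in controls. Knockout 2 lay above every control but control 6, and the log2 fold change was -0.25 (SE 0.27, 95% interval -0.84 to 0.34, limma adjusted p = 0.718). It was -0.07 without control 6, -0.08 without knockout 1, -0.43 without knockout 2 and -0.42 without control 10. G6pc, the catalytic subunit of glucose 6-phosphatase, read 9.01, 9.89, 9.34, 9.57 and 9.10 in knockouts and 9.66, 9.50, 9.52, 8.69 and 8.86 in controls. Knockout 2 was the highest and control 9 the lowest array, with a log2 fold change of 0.14 (SE 0.22, 95% interval -0.34 to 0.61, limma adjusted p = 0.826). Without control 9 the G6pc difference was -0.003, and with the 3 arrays richest in smooth muscle left out that of Pck1 was -0.04.

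The 3 absorptive carriers and Fbp1 went up and down together from array to array, in both genotypes. Over the 10 arrays, the 6 pairs among Slc5a1, Slc2a2, Slc2a5 and Fbp1 had Pearson r between 0.79 and 0.93, with permutation p-values between 0.00144 and 0.0410 after adjustment over all 36 pairs of sugar genes. Spearman rho was 0.83 to 0.95 (adjusted permutation p 0.00480 to 0.0253). Without the 2 arrays farthest from the median r was 0.68 to 0.95. For deviations from the group means r was 0.75 to 0.92, and 5 of the 6 pairs passed after adjustment over the 36 pairs (exact within-group permutation). Fbp1 with Pck1 gave r = 0.80 (adjusted permutation p = 0.0346) and rho 0.83 (adjusted permutation p = 0.0253). Without the 2 farthest arrays r was 0.44, so its size over all arrays depends in part on them. Within groups, with those 2 arrays kept, r was 0.80 (adjusted exact permutation p = 0.0397). Pairs of G6pc with the other genes did not pass over the 10 arrays. Within groups, where 9 of 36 pairs passed, G6pc followed Fbp1 (r = 0.83, adjusted exact permutation p = 0.0397) and Pklr followed Slc2a5 (0.82, 0.0238) and Slc5a1 (0.78, 0.0383). In pairs of Slc2a1 or Pklr with another sugar gene, r is given within groups only, because the groups of these 2 genes did not overlap. Slc2a1 had negative r within groups with every other sugar gene, from -0.71 to -0.30, and none of these passed. All values come from the same 10 arrays, normalised together.

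**Figure D4:**
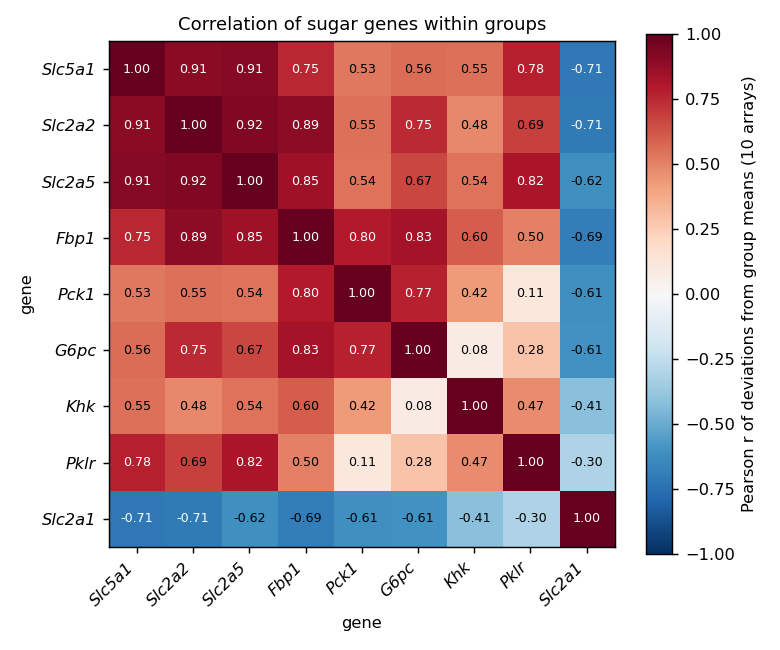
Pearson r between pairs of sugar genes over 10 arrays, after each gene's group mean was subtracted; red is positive and blue negative. Pairs among Slc5a1, Slc2a2, Slc2a5 and Fbp1 lie between 0.75 and 0.92. Pairs outside these 4 genes, such as G6pc with Fbp1 (0.83) and Pklr with Slc2a5 (0.82), fall in the same range. The row of Slc2a1 is negative off the diagonal.

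The promoters of those 4 genes are shown because their levels moved together. The windows are as above: Slc5a1 at chr5:33103969-33104218 (plus strand), Slc2a2 at chr3:28697653-28697902 (plus strand), Slc2a5 at chr4:150119094-150119343 (plus strand) and Fbp1 at chr13:62888283-62888532 (minus strand).
Slc5a1: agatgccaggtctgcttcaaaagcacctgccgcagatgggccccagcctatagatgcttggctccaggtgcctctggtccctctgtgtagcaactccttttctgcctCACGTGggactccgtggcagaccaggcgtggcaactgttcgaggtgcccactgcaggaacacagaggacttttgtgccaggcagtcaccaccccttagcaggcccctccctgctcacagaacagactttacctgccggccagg
Slc2a2: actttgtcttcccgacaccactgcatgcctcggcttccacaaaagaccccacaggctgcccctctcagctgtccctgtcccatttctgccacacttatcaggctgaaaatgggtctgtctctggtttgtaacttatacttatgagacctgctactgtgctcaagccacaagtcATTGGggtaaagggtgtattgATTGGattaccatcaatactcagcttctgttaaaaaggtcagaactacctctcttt
Slc2a5: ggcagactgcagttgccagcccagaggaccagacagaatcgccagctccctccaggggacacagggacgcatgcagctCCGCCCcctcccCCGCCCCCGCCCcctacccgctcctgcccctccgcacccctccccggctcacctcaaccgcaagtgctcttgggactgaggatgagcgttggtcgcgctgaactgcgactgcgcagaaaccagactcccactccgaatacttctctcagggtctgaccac
Fbp1: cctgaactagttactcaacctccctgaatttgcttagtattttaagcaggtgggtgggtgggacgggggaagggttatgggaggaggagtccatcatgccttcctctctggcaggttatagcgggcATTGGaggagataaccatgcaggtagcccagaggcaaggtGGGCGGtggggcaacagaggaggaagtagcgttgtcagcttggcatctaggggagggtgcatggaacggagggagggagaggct
No motif of the 6 was found in all 4 windows. Slc5a1 held CACGTG, present in 6.02% of windows, and Slc2a2 held 2 CCAAT boxes on the opposite strand. Slc2a5 held 3 GC boxes on the opposite strand. Fbp1 held 1 GC box and, on the opposite strand, 1 CCAAT box. GTTAAT, from the site of the gut and liver factor HNF1 (6.43% of windows), was in none of the 4. Among the other sugar genes it was found in the windows of Khk, G6pc and Pck1. TGACGT (6.47% of windows) was in that of Pck1, and CACGTG also in that of Khk.

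The arrays on which the carriers and Fbp1 were high were also those low in Paneth cell markers and high in markers of proximal gut. Averaged over Slc5a1, Slc2a2, Slc2a5, Fbp1, Pck1 and G6pc, deviations from each gene's mean were 0.59 on control 6, 0.41 on knockout 2 and 0.35 on control 8, and -0.58 on knockout 1 and -0.40 on knockout 3. The 7 measured Paneth markers, of cells at the crypt base, averaged 9.40 to 11.48 in controls and 9.48 to 11.74 in knockouts, lowest on control 6 and knockout 2. The 4 proximal markers (Gata4, Onecut2, Cyp2b10 and Adh6a) averaged 9.28 to 10.33 in controls and 8.97 to 10.09 in knockouts, highest on control 6 and lowest on knockout 3. Gata4 varied little, from 9.21 to 9.56, so the other markers of the list carried most of this range. Knockout minus control was 0.07 for Gata4, -0.40 for Onecut2, -0.77 for Cyp2b10 and -0.28 for Adh6a. Slc2a2 followed the proximal mean with r = 0.96 (rho 0.95; adjusted permutation p = 0.00189 and 0.00462 over 126 pairs), r = 0.95 without the 2 farthest arrays and 0.96 within groups. Fbp1 did so with r = 0.95 (rho 0.98; adjusted permutation p = 0.00210 and 0.00126), 0.92 without the 2 farthest arrays and 0.94 within groups. Slc5a1 followed the mean of the 15 enterocyte markers with r = 0.92 (rho 0.89; adjusted permutation p = 0.00315 and 0.0194) and ran against the Paneth mean with r = -0.90 (rho -0.93; adjusted permutation p = 0.00189 and 0.0110). Without the 2 farthest arrays these were 0.84 and -0.88, and within groups 0.91 and -0.92. No pair with the mean of the 4 distal gut markers passed. Over the 10 arrays its r was -0.35 with Slc5a1, -0.50 with Slc2a2, -0.29 with Slc2a5 and -0.38 with Fbp1 (adjusted permutation p from 0.339 to 0.668). Within groups these were -0.43, -0.62, -0.35 and -0.51 (adjusted exact permutation p from 0.243 to 0.531). In a fit with the proximal mean held constant, also added once the data had been seen, the genotype difference was -0.23 for Fbp1 (SE 0.15) and -0.06 for Slc2a2 (SE 0.09). The proximal mean itself stood at 9.47 in knockouts and 9.82 in controls. How much of a genotype difference this covariate takes up was not tested. In that fit Slc2a1 was at 0.35 (SE 0.09, limma adjusted p = 0.156) and Pklr at 0.37 (SE 0.09, limma adjusted p = 0.138). G6pc was at 0.39 there (SE 0.13, limma adjusted p = 0.259), against 0.14 without the covariate.

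In the fit that held the crypt and cycling mean constant, 5 genes changed sign. Slc5a1 was then at 0.13 (SE 0.12), Slc2a2 at 0.10 (SE 0.21) and Slc2a5 at 0.18 (SE 0.22). Fbp1 was at 0.14 (SE 0.37) and Pck1 at 0.40 (SE 0.26). G6pc kept its sign, at 0.54 (SE 0.26, limma adjusted p = 0.571). The direction of these genes thus turned with that covariate, whose own level differed between the groups. Slc5a1 ran against that mean with r = -0.81 (adjusted permutation p = 0.0369), and -0.68 without the 2 farthest arrays. Within groups it was -0.82 (adjusted exact permutation p = 0.0350). For Slc2a2, Slc2a5, Fbp1 and Pck1, r within groups was -0.69, -0.68, -0.72 and -0.76. None of these passed (adjusted exact permutation p from 0.127 to 0.144). Control 8 also read high in the liver transcript Alb, at 10.41 against 5.18 to 6.75 on the other arrays, and several sugar genes are strongly expressed in liver. Of the 6 hepatocyte markers, Ttr, Tat and Ahsg were likewise highest on control 8, at 8.39, 6.50 and 7.32. Cps1 and Serpina1a, at 11.58 and 4.48, lay within the range of the other arrays. A part of liver RNA in the sugar gene values was not tested. Without control 8 the differences were -0.21 for Slc2a2, -0.61 for Fbp1, 0.20 for G6pc and 0.36 for Pklr. Among markers of fat, another tissue that expresses Pck1, Adipoq lay between 3.38 and 4.13 on all arrays, and the mean of 6 measured markers was 6.05 to 6.13 in knockouts and 5.94 to 6.37 in controls.

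**Figure D5:**
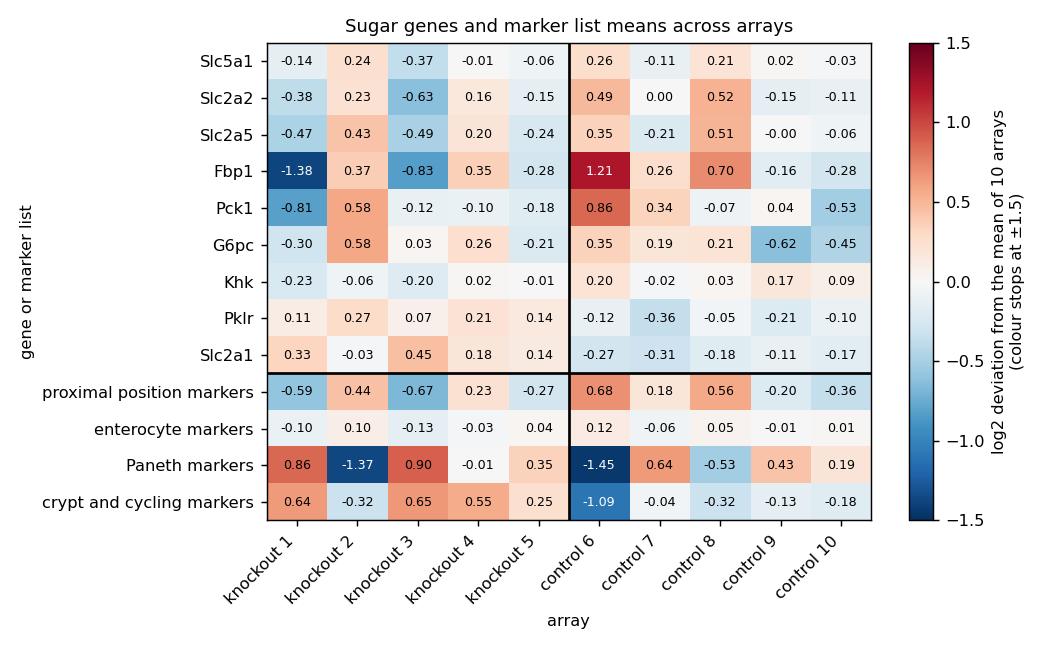
Deviation of each sugar gene, and of 4 marker list means, from its own mean over 10 arrays (log2), with 1 column per array and the genotypes divided by the vertical line. The carriers and Fbp1 share the red columns knockout 2, control 6 and control 8 with the proximal markers, where the Paneth markers are blue. Pklr and Slc2a1 are higher on every knockout than on every control, although Slc2a1 on knockout 2 lies just below its mean (-0.03).

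By the rule of highest Pearson r over the 10 arrays among 22179 other genes, the most similar profiles were listed for the 3 sugar genes of widest range. Fbp1 was nearest to Gm5485 (r = 0.99, within groups 0.99), a long noncoding RNA gene in RefSeq, then to 4430402I18Rik (0.97) and Serf2 (0.96). Pck1 was nearest to Pdk4 (0.95), the kinase that switches off pyruvate dehydrogenase, to Klf15 (0.94), a transcription factor of fasting, and to Dennd3 (0.94). G6pc was nearest to Pilrb1 (0.98), Scarb1 (0.96), a lipoprotein receptor, and Zyg11a (0.94). As the highest of so many values, these carry no p.

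Beyond the 9 genes, 113 of 136 genes on 9 lists of sugar pathways were measured, and 0 of them passed the adjusted threshold. At an unadjusted limma p under 0.05 there were 18, or 15.9%, 9 higher and 9 lower, near the 13.9% of all genes. Groups without overlap were found for 5, or 4.42%, against 2.60% of all genes. Akr1b8, an aldo-keto reductase, was among them: its knockouts read 6.97, 6.32, 6.83, 6.23 and 6.15 and its controls 4.56, 5.20, 5.09, 5.73 and 5.59. The groups were separate, and the mean difference was 1.27 on the log2 scale (SE 0.23, limma adjusted p = 0.110). Akr1b8 was dim in controls, where every value lay below the median of all genes on any array (5.77 to 5.89). How far it lay above background there is unknown. Its difference was 1.31 without knockout 2 (limma adjusted p = 0.0297). It was 1.17, 1.08 and 1.01 with the Paneth, enterocyte and proximal means held constant (0.0158, 0.0498 and 0.0445). With the crypt and cycling mean held constant it was 0.76 (limma adjusted p = 0.499). Pgd, the second dehydrogenase of the pentose phosphate pathway, read 10.98, 10.77, 11.04, 10.87 and 10.66 in knockouts and 10.49, 10.47, 10.36, 10.52 and 10.33 in controls. These groups did not overlap either, and the mean difference was 0.43 (SE 0.09, limma adjusted p = 0.118, or 0.0454 without knockout 2). In that list of 6 measured genes, 1 had an unadjusted p under 0.05 and the median was 0.16, with Rpe at 0.24 (SE 0.14) and Rpia at 0.18 (SE 0.11).

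Of 23 measured genes of glycolysis, 3 were higher and 3 lower at an unadjusted limma p under 0.05, with a median of 0.02. Pgam1, a phosphoglycerate mutase, was at 0.25 (SE 0.09) and the monocarboxylate carrier Slc16a1 at 0.26 (SE 0.09), while Eno3, the muscle enolase, was at -0.36 (SE 0.11). Their adjusted p-values were 0.252, 0.246 and 0.184. The groups did not overlap for Pgam1 and Eno3. Among 17 measured genes of gluconeogenesis outside the 9, 1 was lower and 0 higher at that level (median 0.03). It was Ppargc1a, a coactivator of fasting metabolism, at -0.35 (SE 0.13), beside G6pc3, a second glucose 6-phosphatase, at 0.29 (SE 0.14) and the aminotransferase Got2 at 0.32 (SE 0.15).

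Of 15 other sugar carriers measured, 2 were lower and 0 higher at an unadjusted limma p under 0.05, beside 5.56% and 8.29% of all genes, and their median was -0.19. Slc5a11, a sodium-coupled inositol carrier, was at -0.37 (SE 0.14), Slc2a9, a urate carrier of the GLUT family, at -0.27 (SE 0.11) and Slc2a8 at -0.22 (SE 0.13). In the fructose and polyol list 1 of 4 was higher (Akr1b8) and 1 lower (Tkfc) at that level, with Glyctk, glycerate kinase, at -0.12 (SE 0.13). No gene of the galactose list did so among 4, where the median was 0.10. Ugp2 was at 0.20 (SE 0.10), Galk2 at 0.17 (SE 0.08) and Galm, the mutarotase, at -0.16 (SE 0.15). In the glycogen list 1 of 11 was lower (median -0.11): Gbe1, the branching enzyme, was at -0.30 (SE 0.09) with separate groups, Pygm, the muscle phosphorylase, at -0.32 (SE 0.19) and the primer protein Gyg at -0.14 (SE 0.12). Around pyruvate dehydrogenase 2 of 12 were higher (median 0.09), Pdhx at 0.26 (SE 0.10) and the activating phosphatase Pdp1 at 0.28 (SE 0.12), with Dld at 0.18 (SE 0.12). Of 21 regulators of sugar genes, 2 were higher and 1 lower (median -0.09). Mlxipl, which encodes ChREBP, was at -0.23 (SE 0.10), its partner Mlx at 0.24 (SE 0.09) and Arrdc4, a known target, at 0.25 (SE 0.11). Adjusted p-values of the genes named in this group of lists lay at or above 0.110.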

How the data were processed

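RNA of 10 jejunal samples was measured on Affymetrix whole-transcript arrays. The authors deposited linear intensities. The submitters' processing notes name Affymetrix Expression Console (version 1.4.1.46) and RMA, which subtracts background, gives all arrays 1 distribution and combines probes, so a change shared by most genes would be reduced. Log2 was taken. Of 34472 probe sets, 23521 had 1 gene symbol in the platform annotation, 1814 had several and 9137 none, and only the first kind was used. The probe set of highest mean was kept per gene, leaving 22180 genes with no intensity filter. The genome build of the probe sets is not given in the sources used here. Detection values were not used here, and for arrays their number limits the precision.

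The genotypes were compared by lmFit and eBayes of limma 3.58.1 under R 4.3.3, two-sided, with Benjamini-Hochberg adjustment over all genes. Single genes were also compared by an exact permutation test. Correlations used 100000 permutations, and exact permutations within groups. The fit was tested on simulated data. Named were all 9 genes, both Slc2a1 probe sets, Pcyt1a, the 3 genes of smallest p per pathway list and the 3 most similar profiles of 3 genes. Alb, Lgr5 and Adipoq, and the markers named beside Alb and Lgr5, were picked out with their values in view. The genes, lists and tests were chosen with earlier results of these data known. Alternatives were other scaling, intensity filters, probe set choices, variance models, covariates and left-out arrays.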

Additional observations from a re-analysis of the deposited data

Results flagged for a closer look

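In groups of 5 arrays, a value was examined where its gap to the nearest other value exceeded 0.71 of the group's range. None of the 9 sugar genes had such a value, nor did the second Slc2a1 probe set. Among 74 groups of 5 values examined, 3 did, all in genes of the pathway lists, and chance gives such a gap in about 1 of 20 groups. Eno3 on control 9 read 7.80 against 7.47 to 7.54 on the other controls. Rpia on knockout 2 read 7.45 against 7.92 to 7.98 on the other knockouts. Slc16a1 on control 7 read 9.54 against 9.39 to 9.42 on the other controls.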

How the results depend on the processing

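Each of the 9 sugar genes was refitted under 24 alternatives, and 207 of the 216 values kept their direction and their side of the threshold. The exceptions were Slc2a1 without knockout 2 and Pklr with the Paneth covariate, which passed, and 7 reversals. G6pc was at -0.003 without control 9, and between that and 0.24 with any 1 array left out. With the crypt and cycling covariate, Slc5a1 was at 0.13, Slc2a2 at 0.10, Slc2a5 at 0.18, Fbp1 at 0.14 and Pck1 at 0.40, the median of the 9 genes was 0.18, and among list genes Glyctk was at 0.13, Galm at 0.21, G6pc3 at -0.052 and Rpia at -0.070. Pck1 was at 0.015 with the proximal covariate, and Gyg at 0.0067 without the 3 arrays highest in smooth muscle. These 2 covariates were chosen after seeing the data, and the cause of each reversal was not tested.

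The count of sugar genes called was 1 with the Paneth covariate and 0 to 1 with any 1 array left out. Over all genes, 2 were called with median centring, with a further quantile normalisation and without the 3 smooth muscle arrays. There were 44 with the enterocyte covariate, 362 with the Paneth covariate, 20 with the proximal covariate, and 2 to 452 with any 1 array left out. Knockout 2 gave the 452. Leaving out knockout 1, knockout 3, control 6, control 7, control 8 or control 9 gave 2, and control 10 gave 3. The median of the 9 genes lay between -0.22 and -0.09 with any 1 array left out. No paired analysis was possible because the groups share no replicate number. Detection calls were not used here, so how far a dim probe set such as the second of Slc2a1 lies above background is unknown.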

Other observations

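Over 126 pairs of a sugar gene and a marker list, 16 had an adjusted permutation p under 0.05 over the 10 arrays, and 8 did within groups. The 16 include Slc2a1 with the crypt and cycling mean and Pklr with the enteroendocrine mean. The groups did not overlap for either gene, so the genotype difference enters those pooled values, and neither pair passed within groups. Khk ran against the mean of 2 red blood cell markers, Slc4a1 and Epb42, with r = -0.94 (rho -0.98; adjusted permutation p = 0.00655 and 0.00126) and r = -0.89 without the 2 farthest arrays. Within groups this was -0.87 (adjusted exact permutation p = 0.0729), and the markers lay between 4.72 and 5.55 on all arrays, with 3 other listed markers not analysed here. G6pc ran against the mean of 7 goblet cell markers with r = -0.82 (rho -0.84; adjusted permutation p = 0.0369 and 0.0425), -0.79 without the 2 farthest arrays and -0.84 within groups (adjusted exact permutation p = 0.0932).

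Mlxipl and its partner Mlx, which bind sugar-responsive promoters together, differed in opposite directions. Mlxipl read 9.37, 9.58, 9.38, 9.54 and 9.67 in knockouts and 9.91, 9.81, 9.76, 9.49 and 9.73 in controls. Mlx read 10.27, 10.20, 10.26, 10.09 and 10.06 in knockouts and 9.87, 9.74, 9.96, 10.12 and 9.99 in controls. The groups overlapped for both genes, and limma adjusted p-values were 0.330 and 0.271.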
